A study of Mus musculus with 12 samples.

Results

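Shox2, Nr2f1, Nr2f2 and Isl1, 4 genes for transcription factors of the atria and the sinus node, were taken by symbol from an expression table of 26190 mouse genes. All 4 passed the filter on low counts in every comparison below. The RNA-seq covered 12 libraries in 4 groups of 3 biological replicates. Atria and ventricles were cut from C57BL/6 mouse hearts of the E11.5 stage (E11.5H), in days of embryonic development. The atrium-like and ventricle-like parts were cut from heart organoids (HOs) after 13 days of culture. HOs are beating structures grown from embryonic stem cell aggregates on a laminin and entactin gel with FGF4, and with BMP4, the GSK3 inhibitor BIO and LIF added later in culture. The methods name C57BL/6 and C57BL/6 × JF1 hybrid stem cell lines for the study, and the labels give C57BL/6, so the line behind each HO library was not resolved. The methods describe 3 biological replicates of HOs, each cut into both parts, and the labels do not say which atrium-like and ventricle-like libraries came from the same HOs. How many hearts went into each E11.5H library is not given in the sources used here. The comparisons asked whether the embryonic chambers differ in these 4 genes, whether the HO parts differ in the same way, and at what level each HO part carries them.

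Shox2 encodes a homeodomain protein that keeps sinus node myocytes in the pacemaker state and restrains Nkx2-5. Nr2f1 and Nr2f2 encode the orphan nuclear receptors COUP-TFI and COUP-TFII, which set atrial identity in myocytes, and Nr2f2 also sets venous identity in endothelium. Isl1 encodes a LIM homeodomain protein of second heart field progenitors and of the developing sinus node, and is also known from motor and sensory neurons. In the forming heart Shox2, Nr2f1 and Nr2f2 mark the venous pole, the inflow side from which atria and sinus node arise.

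In the coordinates of the authors' table, on GRCm38/mm10, all 4 genes lie on the minus strand. Shox2 spans chr3:66971723-66981771, Nr2f1 spans chr13:78188975-78198873, Nr2f2 spans chr7:70351950-70366746 and Isl1 spans chr13:116298270-116309688. The promoters of Shox2, Nr2f1 and Nr2f2 are shown because these 3 genes moved together. Each sequence covers 250 bases before and 50 bases after a RefSeq start site (GRCm38.p6, minus strand), printed 5′ to 3′, and capitals mark a GC box, GGGCGG on either strand.
Shox2, chr3:66981722-66982021: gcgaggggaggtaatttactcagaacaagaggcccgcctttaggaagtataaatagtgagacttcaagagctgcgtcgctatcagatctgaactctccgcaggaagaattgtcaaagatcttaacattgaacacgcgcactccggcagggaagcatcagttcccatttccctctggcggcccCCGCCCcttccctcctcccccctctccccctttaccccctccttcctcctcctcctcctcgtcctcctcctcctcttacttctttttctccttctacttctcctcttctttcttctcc
Nr2f1, chr13:78198824-78199123: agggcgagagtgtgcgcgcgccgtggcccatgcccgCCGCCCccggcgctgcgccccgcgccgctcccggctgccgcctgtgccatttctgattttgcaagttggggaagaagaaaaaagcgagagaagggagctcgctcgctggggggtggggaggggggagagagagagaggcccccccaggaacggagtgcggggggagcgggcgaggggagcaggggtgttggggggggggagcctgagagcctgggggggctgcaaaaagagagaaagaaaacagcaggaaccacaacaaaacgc
Nr2f2, chr7:70366697-70366996: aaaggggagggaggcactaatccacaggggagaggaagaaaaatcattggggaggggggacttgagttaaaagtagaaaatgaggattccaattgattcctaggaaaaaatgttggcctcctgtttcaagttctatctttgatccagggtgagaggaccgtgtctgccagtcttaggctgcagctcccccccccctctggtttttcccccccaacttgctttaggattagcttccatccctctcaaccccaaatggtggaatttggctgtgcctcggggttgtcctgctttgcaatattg
A GC box was present once in the Shox2 and once in the Nr2f1 promoter, and 35.7% of all 32851 promoters of that length hold one. The other motifs were also searched on both strands, and none was in the 3 windows. They were the nuclear receptor half-site AGGTCA, which 16.3% of all promoters hold, and the T-box half-site AGGTGT, which 13.7% hold. The GATA site AGATAA was held by 11.2% and the homeodomain core TAATTA by 5.29% of all promoters. No motif match overlapped another in these promoters. The Isl1 promoter, chr13:116309639-116309938, holds AGATAA once and none of the other motifs. The 3 printed windows are not alike in base composition. GC content was 53.3% for Shox2, 68.0% for Nr2f1 and 49.7% for Nr2f2, against a median of 52.7% over all promoters. The ratio of observed to expected CpG was 0.614, 0.717 and 0.109, against a median of 0.384. Nr2f1 has a second RefSeq promoter window, chr13:78196400-78196699, which is not printed. It holds none of the motifs, with a GC content of 43.0% and a CpG ratio of 0.294.

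Nr2f1 and Nr2f2 are close copies of each other, which bears on how fragments could be divided between them. Their longest annotated coding sequences (1263 and 1245 bases) were 83.1% identical over 1227 aligned bases, and the longest run without a difference was 59 bases. That run, shown because reads lying within it cannot be placed on either gene by sequence, lies in exons at chr13:78198284-78198342 for Nr2f1 and chr7:70360052-70360110 for Nr2f2.
Run shared by Nr2f1 and Nr2f2: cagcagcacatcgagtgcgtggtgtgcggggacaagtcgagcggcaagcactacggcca
Isl1 and its paralog Isl2 were 72.2% identical, with a longest shared run of 23 bases. In addition, Shox2, Nr2f1 and Nr2f2 each overlap a gene on the opposite strand, taking the 4 genes at the positions of the authors' table and their neighbours from the GENCODE annotation (vM21). These are Rsrc1 over 382 bases of Shox2, A830082K12Rik over 857 bases of Nr2f1 and B130024G19Rik over 1837 bases of Nr2f2. The use of strand in counting is not given in the sources used here, so fragments of the overlaps cannot be told apart. Shox2 had 7, 9 and 9 fragments in the ventricle libraries of E11.5H, while Rsrc1 had 633.5 to 796 there.

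Each library held 23971258 to 30540993 fragments over all genes. The labelled tissues were checked against 16 cardiomyocyte genes, whose summed level was 25043 to 30094 CPM (fragments of a gene scaled to the library total) in E11.5H atria and 31500 to 32580 CPM in E11.5H ventricles. In HOs the atrium-like libraries had sums of 641.6 to 2260 CPM and the ventricle-like libraries had 3076 to 7923 CPM, with all 16 genes detected in each library. The 12 hepatocyte and visceral endoderm genes summed to 34.4 to 46.7 CPM in E11.5H but to 1270 to 26691 CPM in the atrium-like libraries and 265.8 to 13017 CPM in the ventricle-like ones. The 12 gut epithelium genes summed to 137.5 to 179.4 CPM in E11.5H, 2518 to 8714 CPM in the atrium-like libraries and 1215 to 5466 CPM in the ventricle-like ones. The 7 erythroid genes summed to 5109 to 49489 CPM in E11.5H, highest in replicate 3 of the ventricles, and to 1.98 to 18.1 CPM in HOs. In such bulk samples, fewer cells of a type and less RNA per cell cannot be told apart. The cell mixture moves with every comparison that involves HOs, and its part in the results below was not tested.

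In E11.5H, 3 of the 4 genes were higher in atria than in ventricles. Shox2 had 12.7, 15.3 and 14.4 FPKM (fragments scaled by transcript length and library total, as deposited) in the 3 atrial libraries and 0.0669, 0.0855 and 0.0934 FPKM in the 3 ventricular libraries. Nr2f1 had 11.2, 13.001 and 11.9 FPKM in atria and 0.800, 0.695 and 0.163 FPKM in ventricles. The atrial values of both genes lay in a narrow band far above all ventricular ones. Nr2f2 had 17.5, 16.6 and 16.7 FPKM in atria and 2.18, 2.13 and 2.57 FPKM in ventricles, so its ventricular level was low but clearly above that of Shox2. Isl1 had 2.24, 3.40 and 3.44 FPKM in atria and 4.70, 3.68 and 1.42 FPKM in ventricles. The chambers overlapped for Isl1 and for no other of the 4, and 33.1% of the tested genes had chambers without overlap.

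**Figure D1:**
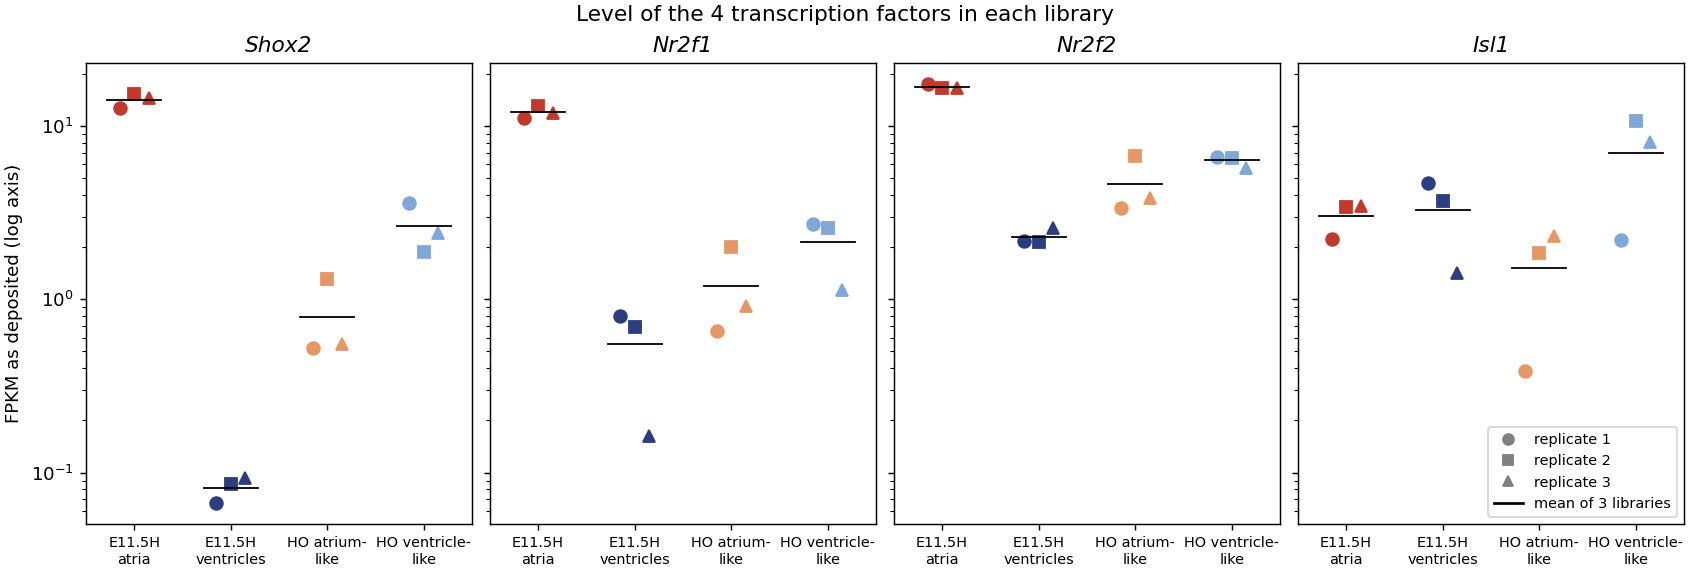
FPKM as deposited (log axis) of the 4 genes in each of the 12 libraries, with 1 symbol per replicate and a line at the mean of 3. Shox2, Nr2f1 and Nr2f2 are highest in E11.5H atria and lowest on average in E11.5H ventricles with both HO parts between, whereas Isl1 overlaps between neighbouring groups.

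Fold changes were fitted to the fragment numbers with edgeR's quasi-likelihood test, with p adjusted by the Benjamini-Hochberg method. A gene was called where the adjusted p was under 0.05 and the log2 fold change was over 1 in either direction. Between the chambers of E11.5H, 712 of 14536 tested genes (4.9%) were called, 425 of them (2.92%) higher in atria, and 3 of the 4 genes were among them. Shox2 differed by 7.34 ± 0.19 on the log2 scale (SE, adjusted p = 4.25e-08 by edgeR) and had the lowest p of all tested genes. For Nr2f1 the log2 fold change was 4.37 ± 0.37 (adjusted p = 5.25e-05 by edgeR) and for Nr2f2 it was 2.81 ± 0.12 (adjusted p = 5.07e-07 by edgeR). Isl1 gave -0.17 ± 0.36 (adjusted p = 0.819 by edgeR), with a 95% confidence interval from -0.98 to 0.64, so a difference of nearly 1 log2 unit toward ventricles lay within it. Its sign depended on 1 library, since without replicate 1 of the ventricles the estimate was 0.17. The pseudocount mattered for the size of the largest difference, because limma on log2(FPKM + 1) gave 3.80 for Shox2. Replicate 3 of the ventricles, the library richest in erythroid genes, had the lowest level of both Nr2f1 and Isl1. The same library had the highest Shox2 (0.0934 FPKM) and Nr2f2 (2.57 FPKM) of the 3 ventricular libraries. Without it the log2 fold changes were 3.96 for Nr2f1 and -0.52 for Isl1.

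Between the HO parts, no gene of the 4 was called, and on average each was lower in the atrium-like parts, the opposite side from the embryonic atria for Shox2, Nr2f1 and Nr2f2. Shox2 had 0.525, 1.302 and 0.556 FPKM in atrium-like and 3.60, 1.88 and 2.43 FPKM in ventricle-like parts. Each ventricle-like library was therefore above each atrium-like one, an arrangement seen in 9.25% of the 15703 tested genes (13.3% had no overlap in either direction). Nr2f1 had 0.655, 1.998 and 0.911 FPKM in atrium-like and 2.73, 2.56 and 1.12 FPKM in ventricle-like parts. Nr2f2 had 3.37, 6.72 and 3.84 FPKM in atrium-like and 6.65, 6.58 and 5.76 FPKM in ventricle-like parts. For both receptors, replicate 2 of the atrium-like parts reached the values of the ventricle-like libraries and the other replicates lay below them. In replicates 1 to 3, 10 fibroblast and mesenchyme genes summed to 4615, 16236 and 5882 CPM in atrium-like parts. In ventricle-like parts they summed to 27950, 11019 and 2856 CPM. The sums of 10 endothelial genes were 33.7, 347.9 and 89.0 CPM in atrium-like and 203.9, 232.1 and 57.7 CPM in ventricle-like parts. The part of these cells in the levels of the 4 genes was not tested. Isl1 varied most, with 0.387, 1.86 and 2.32 FPKM in atrium-like and 2.21, 10.7 and 8.06 FPKM in ventricle-like parts. Its parts overlapped through a single ventricle-like library, replicate 1.

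The log2 fold changes of atrium-like over ventricle-like parts were -1.61 ± 0.51 for Shox2 (95% interval -2.86 to -0.36), -0.74 ± 0.59 for Nr2f1 (-2.18 to 0.70), -0.31 ± 0.25 for Nr2f2 (-0.92 to 0.30) and -2.07 ± 0.80 for Isl1 (-4.02 to -0.12). The adjusted p of the 4 genes was 0.750 to 0.774 by edgeR. Shox2 and Isl1 had an unadjusted p under 0.05 (0.0195 and 0.0410 in edgeR's fit across all genes), as did 889 of the 15703 tested genes. None of these was called (0.0%), and the lowest adjusted p of any gene was 0.750. DESeq2 called 59 genes and limma called 0, and neither called any of the 4. The spread between replicates was wider in HOs, with a common biological coefficient of variation of 0.677 against 0.211 between the embryonic chambers. The embryonic differences of Shox2, Nr2f1 and Nr2f2 (7.34, 4.37 and 2.81) lay above the intervals of the HO parts. Scaling to the cardiomyocyte genes instead of TMM gave -0.10 for Shox2 (adjusted p = 0.946) and -1.11 for Isl1 (adjusted p = 0.401), and turned Nr2f1 to 0.49 (adjusted p = 0.748) and Nr2f2 to 1.14 (adjusted p = 0.320, all by edgeR). The same scaling moved the median of all genes to 1.47. Relative to that median the values were -1.58 for Shox2, -0.98 for Nr2f1, -0.34 for Nr2f2 and -2.58 for Isl1. Since the scaling shifts all genes about alike, these come near the TMM estimates by construction. The 16 cardiomyocyte genes themselves had negative TMM estimates between the HO parts, with 0 called and a median of -1.63.

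Set against the matching embryonic chamber, the atrium-like parts had less Shox2 and Nr2f2 than atria, and the ventricle-like parts had more of both than ventricles. These comparisons share their libraries with those above, so they are no separate evidence. Between atrium-like parts and E11.5H atria, 3821 of 15418 genes (24.8%) were called, 1359 of them (8.81%) lower, and 3 of the 4 genes were among them. Shox2 fell by 4.02 ± 0.36 on the log2 scale (adjusted p = 0.00192), Nr2f1 fell by 3.22 ± 0.39 (adjusted p = 0.00381) and Nr2f2 fell by 1.72 ± 0.23 (adjusted p = 0.00458, all by edgeR). Isl1 gave -0.86 ± 0.62 (adjusted p = 0.326 by edgeR), with an interval from -2.36 to 0.64. Every atrium-like library was below every atrial library for Shox2, Nr2f1 and Nr2f2, and 54.4% of the tested genes had groups without overlap in either direction. Cardiomyocyte scaling, which moved the median of all genes to 3.83, gave -0.35 for Shox2 (adjusted p = 0.608) and 0.38 for Nr2f1 (adjusted p = 0.571), so both calls were lost. It gave 2.003 for Nr2f2 (adjusted p = 0.00661) and 2.45 for Isl1 (adjusted p = 0.00520, all by edgeR), so these were called higher in the atrium-like parts. Under that scaling 14118 of the 15418 tested genes were called. Relative to the shifted median the values were -4.18 for Shox2, -3.44 for Nr2f1, -1.82 for Nr2f2 and -1.38 for Isl1.

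Between ventricle-like parts and E11.5H ventricles, 2859 of 15094 genes (18.9%) were called, 1749 of them (11.6%) higher, and 2 of the 4 genes were among them. Shox2 rose by 4.90 ± 0.49 on the log2 scale (adjusted p = 0.00232 by edgeR) and Nr2f2 rose by 1.37 ± 0.17 (adjusted p = 0.00431 by edgeR). Nr2f1 gave 1.87 ± 0.71 (adjusted p = 0.0931 by edgeR, interval 0.16 to 3.58), although all its ventricle-like libraries were above all ventricular ones. The same held for Shox2 and Nr2f2, and groups did not overlap in 50.7% of the tested genes. Nr2f1 was called by DESeq2 and in a fit of all 12 libraries together. Isl1 gave 1.002 ± 0.65 (adjusted p = 0.287 by edgeR, interval -0.59 to 2.59). The fitted rise of Shox2 starts from 7 to 9 fragments per library, and limma on log2(FPKM + 1) gave 1.72. Cardiomyocyte scaling moved the median of all genes to 2.69 and called all 4 genes higher, as 13306 of the 15094 tested genes were called under it, with values relative to that median of 4.71 for Shox2, 1.88 for Nr2f1, 1.29 for Nr2f2 and 1.005 for Isl1.

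The difference between the chamber differences was tested directly as an interaction over all 12 libraries, as the HO difference minus the E11.5H difference. Of 16494 genes, 25 (0.152%) were called, 21 of them (0.127%) with a negative value, and 3 of the 4 genes were among them. Shox2 had an interaction of -8.94 ± 0.56 (adjusted p = 1.93e-04 by edgeR) and Nr2f2 of -3.11 ± 0.27 (adjusted p = 0.00285 by edgeR), which were the lowest and second-lowest p of all genes. Nr2f1 had -5.10 ± 0.81 (adjusted p = 0.0488 by edgeR) and had the highest p of the 25 called genes. Isl1 had -1.87 ± 0.95 (adjusted p = 0.472 by edgeR), with an interval from -3.99 to 0.24. The call of Nr2f1 was lost when any of 10 of the 12 libraries was left out (adjusted p = 0.0616 to 0.187 by edgeR). It was kept without replicate 2 of the atrium-like parts (0.0258) and without replicate 3 of the ventricle-like parts (0.0336). With the replicate number as a block the call of Nr2f1 was lost as well (-5.30, adjusted p = 0.126 by edgeR). Cardiomyocyte scaling moved the median of all genes to 1.16 and left Shox2 as the only called gene of the 4, at -7.74 (adjusted p = 0.0146 by edgeR), with Nr2f1 at -4.18 and Nr2f2 at -1.97.

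**Figure D2:**
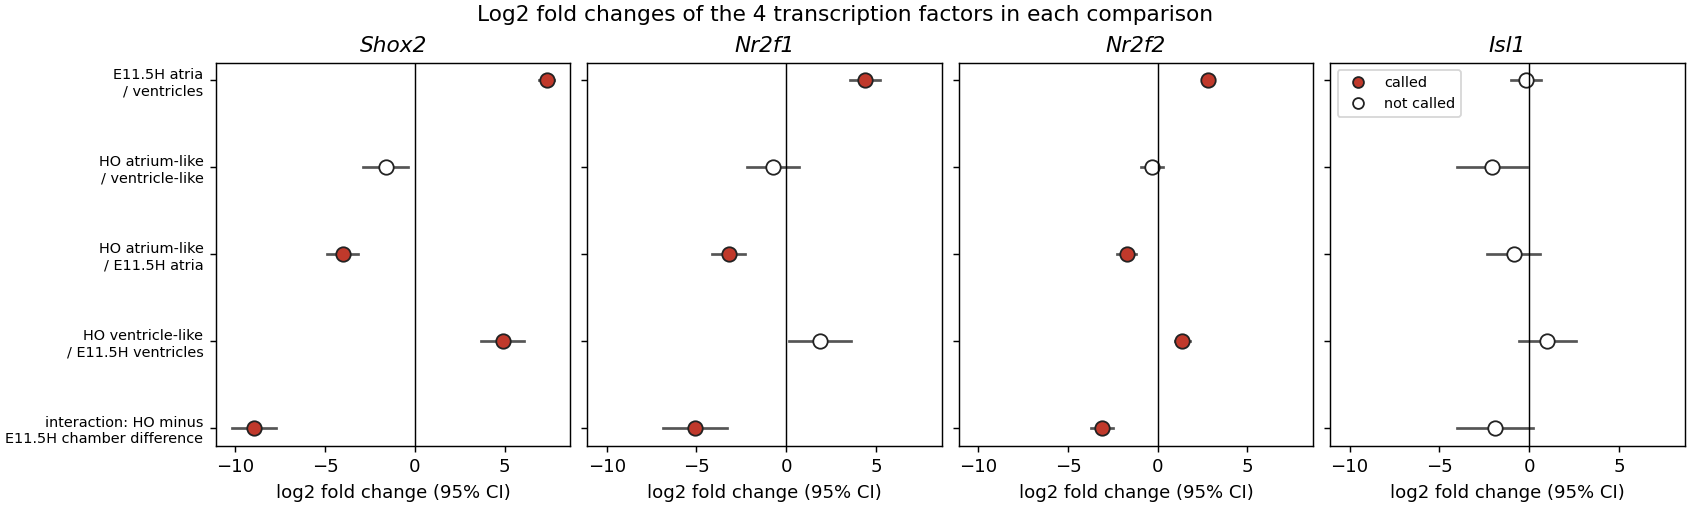
Log2 fold changes of the 4 genes with 95% confidence intervals in the 5 comparisons, from edgeR with TMM scaling. Filled points passed the threshold. Shox2, Nr2f1 and Nr2f2 are positive in E11.5H (7.34, 4.37 and 2.81) and negative in the HO parts (-1.61, -0.74 and -0.31, none called), where cardiomyocyte scaling turns the sign of Nr2f1 and Nr2f2.

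By mean FPKM, Shox2, Nr2f1 and Nr2f2 kept 1 order of groups, with E11.5H atria first, then ventricle-like parts, atrium-like parts and E11.5H ventricles. For Shox2 the means were 14.1 ± 1.3, 2.63 ± 0.88, 0.794 ± 0.44 and 0.0819 ± 0.014 FPKM (SD, n = 3 each), and no neighbouring groups overlapped. For Nr2f1 they were 12.04 ± 0.92, 2.14 ± 0.88, 1.19 ± 0.71 and 0.553 ± 0.34 FPKM. Its HO parts overlapped each other, and the atrium-like parts overlapped the E11.5H ventricles. For Nr2f2 they were 16.9 ± 0.50, 6.33 ± 0.49, 4.64 ± 1.8 and 2.29 ± 0.24 FPKM, with overlap between the HO parts alone. Isl1 was ordered differently, with ventricle-like parts at 6.98 ± 4.3, E11.5H ventricles at 3.27 ± 1.7, E11.5H atria at 3.03 ± 0.68 and atrium-like parts at 1.52 ± 1.0 FPKM. Every neighbouring pair in that order overlapped. Over all tested genes, 13.3% had no overlap between the HO parts. Against the matching embryonic chamber it was 54.4% for atrium-like and 50.7% for ventricle-like parts. That share was not computed for an HO part against the other chamber, so lack of overlap there has no measure beside it.

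The 4 genes also stood in different proportions to each other in each group. In all 3 atrial libraries of E11.5H, Nr2f2 was the highest and Isl1 the lowest of the 4 in FPKM, which is per length. In all 3 ventricular libraries Shox2 was the lowest. The FPKM ratio of Nr2f2 to Nr2f1 was 1.28 to 1.56 in atria, 2.73 to 15.8 in ventricles, 3.36 to 5.14 in the atrium-like and 2.44 to 5.12 in the ventricle-like parts, so the levels of both receptors were nearest to each other in atria. The high end in ventricles came from replicate 3, in which Nr2f1 rested on 12 fragments. The FPKM ratio of Shox2 to Isl1 was 4.19 to 5.68 in atria and 0.0142 to 0.0657 in ventricles. In HOs it ranged from 0.239 to 1.36 in atrium-like and from 0.176 to 1.62 in ventricle-like parts, with replicate 1 the highest in both.

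Within each HO part the libraries differed several-fold in Isl1. The lowest value, 0.387 FPKM, came from replicate 1 of the atrium-like parts, the library with the lowest cardiomyocyte sum (641.6 CPM) and the highest hepatocyte and visceral endoderm sum (26691 CPM). The highest Isl1 values came from replicates 2 and 3 of the ventricle-like parts, which were unlike in other markers. Replicate 2 had the highest sum of 12 neural genes, 988.0 CPM, and replicate 3 had 32.5 CPM together with the highest cardiomyocyte sum of the HO libraries, 7923 CPM. Neural genes summed to 201.9 CPM in replicate 1 of the ventricle-like parts, where Isl1 was 2.21 FPKM, and to 4.59, 220.4 and 18.3 CPM in the atrium-like parts. In E11.5H they summed to 17.9 to 32.4 CPM. The part of these cells in the Isl1 level was not tested. Isl2, the paralog of Isl1 that is known from motor neurons, had 0 to 31 fragments per library and was called in no comparison in which it was tested. Nr2f6, a further nuclear receptor of the COUP-TF family, had 42.2 to 61.0 FPKM over the 12 libraries and was also called in none.

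The level of each gene can be read against the cardiomyocyte genes of the same library. On the log2 CPM scale, Shox2 lay 3.38 to 3.85 below the mean of the 16 cardiomyocyte genes in E11.5H atria and 10.96 to 11.38 below it in E11.5H ventricles. In the HO parts it lay 3.33 to 5.10 below in atrium-like and 3.39 to 4.71 below in ventricle-like parts, nearer the atrial than the ventricular values. The cardiomyocyte genes were themselves lower in HOs. Scaled to them, the median of all genes was 3.83 higher in atrium-like parts than atria and 2.69 higher in ventricle-like parts than ventricles. A smaller distance to these genes in HOs is therefore found for most genes. Relative to that median, Shox2 was at -4.18 against atria and 4.71 against ventricles. Nr2f1 lay 3.998 to 4.43 below in atria, 8.27 to 10.57 in ventricles, 3.39 to 4.77 in the atrium-like and 3.58 to 6.21 in the ventricle-like parts. The 6.21, from replicate 3, stood between atria and ventricles. Nr2f2 stood 0.08 to 1.74 below in atrium-like parts, closer to the cardiomyocyte genes than in either chamber (2.68 to 2.82 in atria and 5.67 to 6.05 in ventricles). In ventricle-like parts it stood 1.25 to 2.89 below, a range that takes in the atria. Isl1 lay 5.92 to 6.72 below in atria, 5.71 to 7.47 in ventricles, 3.41 to 4.13 in the atrium-like and 1.505 to 4.45 in the ventricle-like parts. These are differences of levels within a library, with no test, and do not show which cells carry the transcripts.

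**Figure D3:**
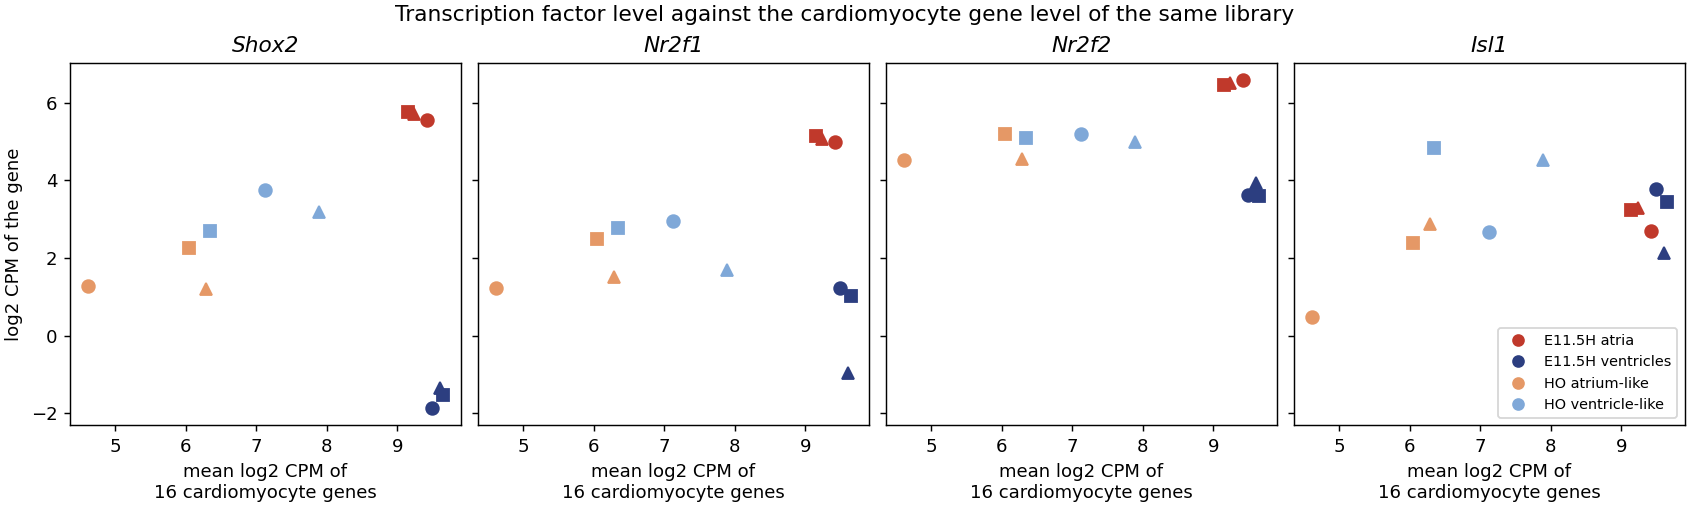
Log2 CPM of each gene against the mean log2 CPM of 16 cardiomyocyte genes in the same library, by group (colour) and replicate (circle 1, square 2, triangle 3). HO libraries lie to the left of E11.5H, and for Shox2 and Nr2f1 the E11.5H ventricles stand alone at the lower right.

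Of 6 genes that work with these factors, 3 were called higher in E11.5H atria. They were Tbx5, a T-box factor of atria and conduction system (1.66 on the log2 scale, adjusted p = 2.85e-06), Hcn4, the main pacemaker channel (1.51, adjusted p = 2.52e-05), and Tbx3, a T-box repressor of the sinus node (1.301, adjusted p = 0.00118, all by edgeR). Tbx18, a factor of the sinus horns (0.76), passed on adjusted p but not on fold. Nkx2-5, which Shox2 restrains in the node, gave -0.17 and Bmp4, a ligand downstream of Shox2, gave 0.45, and neither passed. Between the HO parts 0 of the 6 were called, with log2 fold changes from -2.47 for Hcn4 to -0.11 for Tbx3. Under cardiomyocyte scaling 3 of the 6 turned positive, and all 6 lay below the shifted median of all genes. Hcn4 had 10.4 to 13.7 FPKM in atria and 3.64 to 4.27 FPKM in ventricles, but 0.462 to 1.46 FPKM in atrium-like and 4.41 to 9.58 FPKM in ventricle-like parts. It was the only one of the 6 called in the interaction, at -3.97 ± 0.53 (adjusted p = 0.0323 by edgeR, and 0.160 with cardiomyocyte scaling).

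Against the matching chamber, Tbx3 was called higher in both HO parts, by 1.01 over atria (adjusted p = 0.0143) and by 2.39 over ventricles (adjusted p = 0.0214), and Tbx18 lower in both, at -6.64 (adjusted p = 0.00132) and -3.70 (adjusted p = 0.0166, all by edgeR). Tbx5 (-3.18, adjusted p = 0.00352) and Hcn4 (-3.29, adjusted p = 0.00369, both by edgeR) were called lower in atrium-like parts than atria, and neither was called between ventricle-like parts and ventricles. With cardiomyocyte scaling they were at 0.31 and 0.19 against atria and not called, below the shifted median of all genes (3.83). Tbx18 had 26.8 to 32.4 FPKM in atria and 15.9 to 18.8 FPKM in ventricles, but 0.119 to 0.492 FPKM in atrium-like and 0.534 to 3.02 FPKM in ventricle-like parts. Tbx18 is also an epicardial gene, and 8 epicardial genes summed to 905.0 to 985.3 CPM in atria, 453.4 to 458.6 CPM in ventricles, 69.1 to 204.5 CPM in atrium-like and 28.1 to 557.9 CPM in ventricle-like parts. Nkx2-5 was called lower in both parts, at -3.77 (adjusted p = 0.00591) and -2.35 (adjusted p = 0.0273, both by edgeR). With cardiomyocyte scaling Nkx2-5 was at -0.31 and -0.15 and was not called, and relative to the shifted median of all genes it was at -4.14 and -2.83. Under that scaling Tbx3 was higher and Tbx18 lower in both parts, with Tbx18 no longer called against ventricles (adjusted p = 0.155 by edgeR). The median of all genes moved up to 3.83 against atria and 2.69 against ventricles. Tbx3 was already higher with TMM, so this shift kept its sign by construction.

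A list of 11 sinus node genes, which shares Hcn4, Tbx3 and Tbx18 with the 6 above, had 7 genes called higher and 0 lower in E11.5H atria, with a median log2 fold change of 1.30 beside 0.01 for all genes. The largest were Vsnl1, a neuronal calcium sensor (6.68), the matrix protein gene Smoc2 (3.55) and the calcium-binding copine gene Cpne5 (2.49). Between the HO parts 0 of the 11 were called, the estimate was negative for all 11 and the median was -1.40 beside -0.03 for all genes and -1.63 for the 16 cardiomyocyte genes, which were negative in all 16. With cardiomyocyte scaling 5 of the 11 turned positive, and 10 of the 11 lay below the median of all genes, as did 16 of 16 cardiomyocyte genes. In the interaction 3 were called, all negative, namely Vsnl1 at -10.19, Hcn4 at -3.97 and Smoc2 at -3.60 (adjusted p = 0.0121 to 0.0398 by edgeR). Vsnl1 had 25.3 to 27.7 FPKM in atria and 0.0960 to 0.332 FPKM in ventricles, but 0.0952 to 0.472 FPKM in atrium-like and 1.56 to 6.09 FPKM in ventricle-like parts. Cpne5 had 8.51 to 9.46 FPKM in atria and 1.08 to 1.98 FPKM in ventricles, but 0.0712 to 0.708 FPKM in atrium-like and 0.761 to 1.45 FPKM in ventricle-like parts.

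The atrial list of 12 genes had 7 called higher in E11.5H atria (median 1.21), led by the potassium channel gene Kcna5 (3.69), the calcium pump regulator Sln (3.68) and the lipid transfer protein gene Stard10 (3.67). Between the HO parts 0 were called, 11 of 12 estimates were negative and the median was -1.41 (with cardiomyocyte scaling 5 were positive and 11 lay below the median of all genes). In the interaction 0 were called and the median was -2.96. The ventricular list of 10 genes had 9 called lower in E11.5H atria, led by the transcription factor Hand1 (-6.30), the myosin light chain Myl2 (-6.18) and the transcription factor Irx4 (-5.56), and 0 called between the HO parts (median -0.45). Its interaction went the other way, with 9 of the 10 estimates positive, 0 called and a median of 3.11. The interaction subtracts the E11.5H difference, and all lists were chosen with earlier results of these data known. The choice therefore favoured negative interactions for sinus node and atrial genes and positive ones for ventricular genes. In the list of 12 vein and artery genes, which bears on the venous role of Nr2f2, Aplnr (3.32) and Hey1 (1.73) were called higher and Hey2 (-1.94) lower in E11.5H atria, and 0 were called between the HO parts. Of 9 second heart field genes, which bear on Isl1, 8 were tested and 1 was called higher in E11.5H atria, with 0 called between the HO parts.

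**Figure D4:**
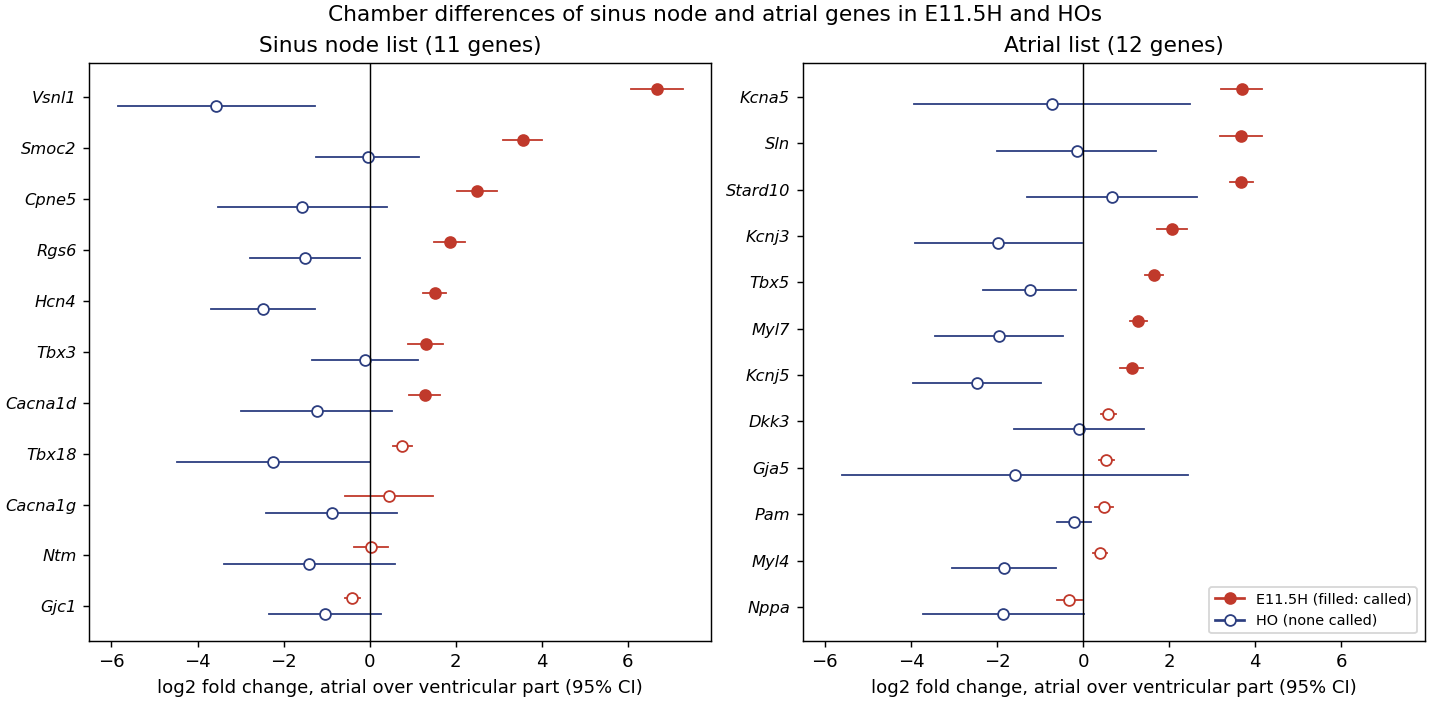
Log2 fold change of atrial over ventricular parts with 95% confidence intervals for the 11 sinus node and the 12 atrial genes, in E11.5H (red) and in HOs (blue). In E11.5H 7 genes of each list were called (filled), all higher in atria, and in HOs none was called and 11 estimates of each list were negative with TMM scaling, of which cardiomyocyte scaling turns part to positive.

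The genes most like each of the 4 were ranked by Pearson correlation of log2 CPM over the 12 libraries among 16493 other genes. The 12 libraries fall into 4 groups, so few independent levels stand behind each correlation, and it is given as a description. For Shox2 the closest were Nr2f2 (r = 0.98), 1810030O07Rik (0.95) and the vesicular glutamate transporter gene Slc17a7 (0.94), and 7 genes in all had an r over 0.9. For Nr2f1 they were Wnt2 (0.93), a ligand of the venous pole, Nr2f2 (0.93) and its own antisense neighbour A830082K12Rik (0.92). For Nr2f2 they were Shox2 (0.98), 1810030O07Rik (0.95) and Sln (0.93). Over the 6 HO libraries alone, r was 0.85 between Shox2 and Nr2f2, 0.88 between Nr2f1 and Nr2f2 and 0.72 between Shox2 and Nr2f1. The other named genes had an r over the 6 HO libraries of 0.73 for 1810030O07Rik and 0.87 for Slc17a7 with Shox2, and of 0.46 for Wnt2 and 0.65 for A830082K12Rik with Nr2f1.

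Wnt2 and Slc17a7 were chosen by their correlation with Nr2f1 and Shox2 over these 12 libraries, so a like order of groups follows from the choice. Wnt2 averaged 36.3 FPKM in atria, 2.84 FPKM in ventricles, 4.999 in atrium-like and 7.70 in ventricle-like parts. Slc17a7 averaged 10.6 FPKM in atria, 0.0458 in ventricles, 1.13 in atrium-like and 2.70 in ventricle-like parts, which is the order of groups seen for Shox2. A830082K12Rik had 1.64 to 2.29 FPKM in atria, 0.176 to 0.352 in ventricles, 0.185 to 1.20 in the atrium-like and 0.375 to 0.730 in the ventricle-like parts. It overlaps Nr2f1 on the other strand, and fragments of the overlap cannot be assigned to either gene with the sources used here. Over the 12 libraries Isl1 had no close companion apart from Zc2hc1a (r = 0.92), followed by Map9 and Gm16740 (both 0.88). Over the 6 HO libraries its r was 0.97 with Zc2hc1a, 0.93 with Map9 and 0.94 with Gm16740. The r of Isl1 with Shox2, Nr2f1 and Nr2f2 was 0.09, 0.18 and 0.05 over the 12 libraries. Over the 6 HO libraries these values were 0.54, 0.41 and 0.49.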

How the data were processed

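RNA-seq libraries of E11.5H atria and ventricles and of HO atrium-like and ventricle-like parts (3 each) were grouped by their labels, and all 12 were used. Per the methods, libraries were made and sequenced by a company, reads were mapped to GRCm38/mm10 with STAR, and fragments and FPKM were computed per gene. The counting tool, annotation release, versions and use of strand are not given in the sources used here. The authors deposited expected counts, which are unnormalized fragments per gene. Of these values 23.3% differ from a whole number by more than 0.001, and they were rounded before testing. The authors also deposited FPKM values, used here as levels without change.

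The test was edgeR's quasi-likelihood F test (edgeR 4.0.16, R 4.3.3) with TMM scaling, a filterByExpr limit of 10 fragments and Benjamini-Hochberg adjustment over all tested genes, in 5 comparisons, each pair of groups fitted without the others and the interaction over all 12 libraries. A call needed an adjusted p under 0.05 together with a log2 fold change above 1 in either direction. Log2 CPM values used TMM factors and a prior count of 0.5, while summed CPM used plain library totals. The fit was tested on simulated data. Each library held 23971258 to 30540993 fragments. Alternatives were other size factors, DESeq2 1.42.0, no filter, limma 3.58.1 on log2(FPKM + 1) and log2(FPKM + 0.1), all libraries in 1 fit, the replicate number as a block, scaling to 16 cardiomyocyte genes, no fold limit, and leaving out each library.

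The 4 genes and all gene lists were chosen with earlier results of these data known. Named beside them were paralogs, 6 partner genes, the 3 genes with the largest called difference between E11.5H chambers from each of 4 lists, and the 3 genes most correlated with each of the 4. From each of 2 lists, 1 gene is not reported here, and it was left out of the list's counts. Promoters came from RefSeq (GRCm38.p6), coding sequences and overlaps from GENCODE vM21 (GRCm38), aligned with Biopython 1.88. A count of 0 allows up to 3 fragments, which covers counting error only. P-values measure the spread between these samples.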

Additional observations from a re-analysis of the deposited data

Results flagged for a closer look

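The chamber difference of 8 named genes was not the same in HOs as in E11.5H by the interaction over all 12 libraries, with edgeR and TMM. Of the 4 transcription factors, these were Shox2 (-8.94 on the log2 scale, adjusted p = 1.93e-04), Nr2f2 (-3.11, adjusted p = 0.00285) and Nr2f1 (-5.10, adjusted p = 0.0488). Among sinus node genes they were Vsnl1 (-10.19), Hcn4 (-3.97) and Smoc2 (-3.60). Vsnl1 and Smoc2 were named for their large E11.5H differences, which the interaction subtracts, so the choice favoured negative values. Slc17a7 (-8.90) and Wnt2 (-4.03) were chosen for their likeness to Shox2 and Nr2f1, so their interactions repeat the pattern that chose them. All 8 were more negative in HOs than in E11.5H. Over all 16494 tested genes, 25 (0.152%) were called in the interaction. No group had more than 3 libraries, so single libraries were not screened for standing apart.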

How the results depend on the processing

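Of 320 log2 fold changes of the 4 genes under alternatives, 294 kept their direction and their side of the threshold, 14 lost the threshold, 4 gained it and 8 changed sign. The 320 include the setting without a fold limit, which reuses the main fit, so its fold changes could not change in size or sign. Scaling to the cardiomyocyte genes called 4 genes in place of 2 between ventricle-like parts and E11.5H ventricles, 1 in place of 3 in the interaction, and 2 in place of 3 between atrium-like parts and E11.5H atria. It turned Nr2f1 to 0.49 and Nr2f2 to 1.14 between the HO parts, and between atrium-like parts and E11.5H atria it turned Nr2f1 to 0.38, Nr2f2 to 2.003 (adjusted p = 0.00661 by edgeR) and Isl1 to 2.45 (adjusted p = 0.00520 by edgeR). The shift of all genes that comes with it is part of its construction. Isl1 between the E11.5H chambers turned to 0.13 with it and to 0.0231 with limma on log2(FPKM + 0.1), and ranged from -0.52 to 0.17 when single libraries were left out. The cause was not tested.

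The HOs were cut into both parts, but the labels do not say that a replicate number marks the same HOs or hearts, so the numbers were not used as pairs. Same-numbered libraries correlated in their deviations from the group means by 0.01, 0.02 and 0.04 in E11.5H and by 0.02, 0.59 and 0.36 in HOs, and not every library was closest to its own number. With the replicate block, 3, 0, 3 and 2 of the 4 genes were called between E11.5H chambers, HO parts, atrium-like parts and atria, and ventricle-like parts and ventricles. Without the block, 4.9%, 0.0%, 24.8% and 18.9% of all tested genes were called in these comparisons. In the interaction the block called 2, without Nr2f1 (-5.30, adjusted p = 0.126 by edgeR), and 5 genes in all in place of 25.

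Over all genes, called between E11.5H chambers were 712, and 386 with limma on log2(FPKM + 1), 30 in a fit of all 12 libraries and 1982 without the fold limit. In the interaction, 455 were called by DESeq2, 89 and 45 by limma with pseudocounts of 1 and 0.1, 10 with cardiomyocyte scaling, and 2 to 216 with 1 library left out. Between ventricle-like parts and ventricles 2859 were called, and 4462 without the fold limit, 13306 with cardiomyocyte scaling and 1116 to 1212 when a ventricle library was left out. Between atrium-like parts and atria 3821 were called, and 14118 with cardiomyocyte scaling and 1662 to 1726 when an atrial library was left out. Between the HO parts, cardiomyocyte scaling called 1279 genes. The level of Shox2 in E11.5H ventricles rests on 7 to 9 fragments and that of Nr2f1 on 12 to 64.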
